A study of Homo sapiens with 12 samples.

Results

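The 36 genes described here encode proteins of the centromere and the kinetochore, the assembly that ties each chromosome to the spindle during cell division. They were chosen by symbol from the authors' deposited table of differential expression and joined by gene identifier to the deposited expression levels. All 36 were found among the 19460 genes of the table, and all 36 were among the 15869 genes tested, those with a mean of at least 0.5 FPKM (fragments per kilobase of transcript, scaled for library size). T-47D, an established line of oestrogen receptor positive breast cancer cells, was treated with 1 µM palbociclib, which blocks the cell cycle kinases CDK4 and CDK6, or with DMSO, the solvent, for 24 h. Poly(A) RNA sequencing was done on 3 biological replicates per treatment, and ATAC-seq, which reads open chromatin, on 3 more per treatment. The RNA labels give the genotype as WT and the medium as DMEM with 10% fetal bovine serum. The ATAC labels give the same medium with penicillin and streptomycin, 0.1% DMSO for the controls, and separate dishes for the replicates. All 4 groups share the line and the time, and 1 line at 1 dose is the limit of the model.

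The kinetochore is built in layers. CENP-A, a variant of histone H3, marks the centromere and is put there by its chaperone HJURP and the MIS18 complex. On it sits the constitutive centromere-associated network (CCAN), the inner layer that stays on chromatin through the cell cycle. The KNL1, MIS12 and NDC80 complexes, which together bind microtubules, the SKA complex, and the corona and motor proteins form the outer layer. Most of the outer layer gathers on the chromosome for mitosis. The members were grouped by these known roles into 4 proteins of CENP-A and its loading, 14 of the CCAN and 18 of the outer layer.

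The luminal epithelial markers were high, with KRT8 at 1698 FPKM and ESR1 at 43.17 FPKM in DMSO. In palbociclib 8 of 9 were called higher, against 20.9% of all genes tested. KRT8 stood at 2491 FPKM in palbociclib, and PGR went from 82.02 to 124.4 FPKM. The remaining marker, EPCAM, went from 195.6 to 177.1 FPKM and was not called. The part of these markers in the results below was not tested. Of the other types, 1 of 3 basal markers had a measured level, TP63, at most 0.1128 FPKM in any library, and 0 of 3 endothelial markers had one. The leukocyte markers with a measured level, 2 of 4, summed to at most 1.586 FPKM. Of the fibroblast markers, 2 of 4 had a measured level. COL1A1 stood at 23.65 FPKM in DMSO and COL1A2 at 0.4528 FPKM, and COL1A1 did not pass the test. All 6 of 6 cell cycle markers fell, with a median log2 change of -3.46, among them MKI67 from 30.79 to 1.618 FPKM. In bulk RNA, fewer cells of a type and less RNA per cell cannot be told apart, so a lower level in the values below can be either. No library stood apart, since the lowest correlation within a treatment was 0.9951 and the highest between treatments 0.9711 (Pearson r across genes). The median gene moved by 0.00 on the log2 scale as deposited, and by 0.10 when each library was centred on its median. The depth of the RNA libraries is not given by FPKM, but the mean normalised count per member in the authors' deposited table ran from 354.1 for CENPP to 23080 for CENPF. The ATAC libraries held 12830062 to 18250496 counts in peaks.

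RNA of every member was lower after palbociclib. All 36 of 36 fell at an adjusted p under 0.05 (limma on log2(FPKM + 1)), 0 rose, and in all 36 the highest palbociclib library lay below the lowest DMSO library. Of all genes tested, 22.9% were called lower, 20.9% higher, and 28.2% had groups that did not overlap in the lower direction. A fall of at least 1 on the log2 scale was met by 27 of 36 members and by 3.04% of all genes. The median log2 change was -2.17 over the members and 0.00 over all genes tested. The 36 members together summed to 1187, 1183 and 1196 FPKM in the DMSO libraries and to 381.9, 390.5 and 386.2 FPKM in the palbociclib libraries.

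By layer, the median log2 change was -2.71 for CENP-A and its loading, -1.89 for the CCAN and -2.56 for the outer kinetochore. The range of the CCAN (-2.94 to -0.36) lay within that of the outer layer (-3.81 to -0.32). On the log2(FPKM + 1) scale, SPC25, NUF2 and NDC80 of the outer layer lay below every CCAN member. The CCAN had 10 of 14 members lower by at least 1 on the log2 scale, and the outer layer 13 of 18. Within each library the order was the same in every palbociclib sample, with the median member of the CCAN at -1.97, -1.94 and -1.86 and that of the outer layer at -2.48, -2.57 and -2.59 relative to the DMSO mean on the log2 scale. The difference between the layers was not tested, since the members were chosen with results known.

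The wider split ran through the complexes and not between the layers. Levels fell to between 3.4% and 38.8% of DMSO for 28 members, and to between 63.6% and 79.4% for the other 8, with no member between. The 8 were CENPC, CENPT and CENPX of the CCAN, MIS12, PMF1 and NSL1 of the MIS12 complex, SKA2 of the SKA complex and ZW10 of the corona. This boundary, a 2-fold difference in mean FPKM, was set after the values were seen and serves as description. The gap belongs to the chosen members. Among the other kinetochore genes described below, ZWILCH, NDE1, CENPS and CKAP5 lay inside it, at 40.4%, 49.4%, 51.5% and 59.5% of DMSO. In DMSO the levels of the 8 ran from 7.294 FPKM for CENPC to 116.1 FPKM for SKA2. This lay within the range of the other 28, 1.323 to 128.8 FPKM, and a difference in level was not tested.

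**Figure D1:**
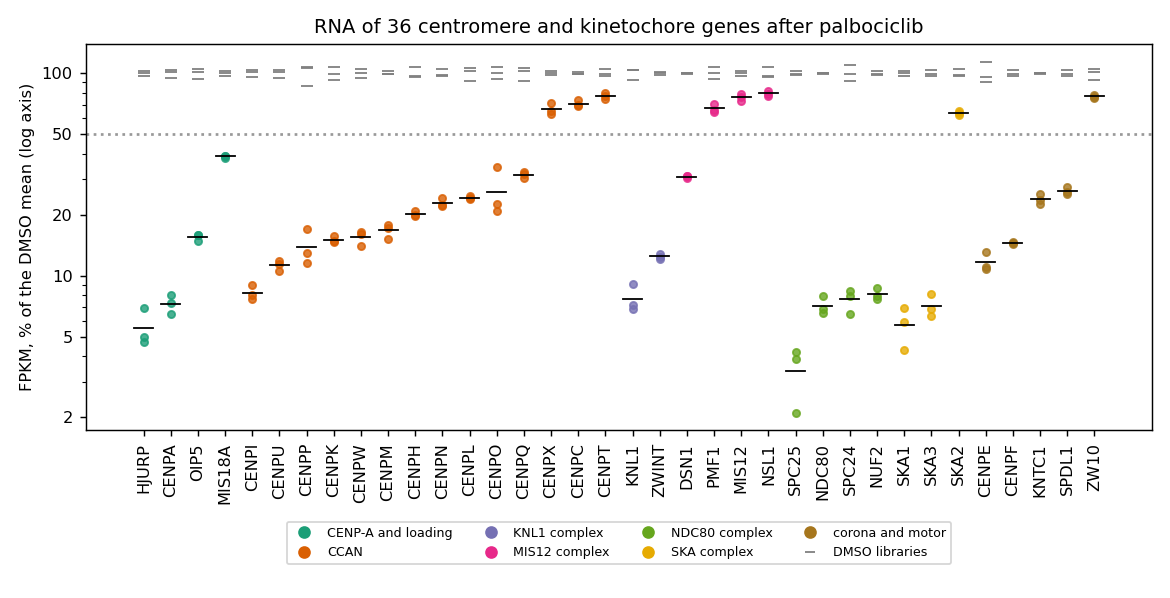
FPKM of the 36 members as a percentage of the gene's DMSO mean (vertical log axis), by complex or group and, within it, in order of the mean. Coloured points are the 3 palbociclib libraries, grey dashes the 3 DMSO libraries, black bars the palbociclib mean and the dotted line 50%. The 8 members above the line (63.6% to 79.4%) come from the CCAN, the MIS12 and SKA complexes and the corona, and no palbociclib point reaches the DMSO dashes.

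Promoters were read beside the RNA values. RefSeq sequences (GRCh38.p14) of 300 bases, from 250 before to 50 after an annotated start, were matched by symbol for 30 members. CENPH, CENPL, CENPM, KNL1, KNTC1 and MIS18A had none in the table. For CENPI the only start listed, chrX:101101058, lies inside the gene, whose span begins at chrX:101098204. Its sequence is counted among the 30 and held none of the words described next. Words of 3 kinds were searched on both strands. The cell cycle genes homology region (CHR), the element read by the MuvB core of the DREAM and B-MYB complexes, was searched as TTTGAA or TTTAAA. The E2F element was searched as TTCCCGC or TTGGCGC, and the CCAAT box, the NF-Y element, as those letters, CCAAT. The second E2F word shares letters with a CCAAT box on the other strand when an A precedes it, which happens in 2 members, PMF1 and ZW10. A match is a description of letters and not a site of binding. In the sequences printed below, capitals mark these words, on either strand, and each sequence runs 5′ to 3′ on the strand of its gene; positions count from the start, which is 0, and give the leftmost base of a word.

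CENP-A and its loading factors fell in all 4 of 4 cases. HJURP, the chaperone that deposits CENP-A, stood at 20.89, 20.44 and 19.85 FPKM in DMSO and at 1.412, 1.011 and 0.9555 FPKM in palbociclib. The log2 change was -3.34 ± 0.085 (SE; adjusted p = 1.24e-08), and the means differed 18.1-fold. CENPA itself, with 17.74, 17.36 and 16.16 against 1.373, 1.252 and 1.112 FPKM, was 13.7-fold lower (log2 change -3.01 ± 0.067). Both genes kept under 10% of their DMSO mean in every palbociclib library. OIP5, which encodes MIS18β, fell 6.41-fold from 25.66 ± 1.58 to 4.001 ± 0.154 FPKM (mean ± SD, n = 3). OIP5 overlaps an antisense gene, OIP5-AS1, and without the counting strand, which the sources used here do not give, their reads cannot be told apart. Of the 36 members, 16 overlap another annotated gene. MIS18A, its partner in the MIS18 complex, had the smallest change of this layer, from 38.15, 36.56 and 38.92 to 14.49, 14.74 and 14.83 FPKM (2.58-fold, log2 change -1.31 ± 0.039, adjusted p = 3.33e-08). The 2 subunits of the MIS18 complex thus fell by different amounts, while no library of either treatment overlapped. The promoter of CENPA is shown because it holds CHR words at -57 and at -18 (chr2:26785956-26786055, plus strand, 100 bases up to the start).
CENPA: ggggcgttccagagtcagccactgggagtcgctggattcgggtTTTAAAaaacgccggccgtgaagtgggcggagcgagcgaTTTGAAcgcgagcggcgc

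In the CCAN, 14 of 14 members fell. The largest change was that of CENPU, a subunit of the CENP-O/P/Q/U group that docks the kinase PLK1. Its levels were 48.39, 51.74 and 52.5 FPKM in DMSO and 5.39, 5.825 and 6.019 FPKM in palbociclib, 8.86-fold lower (log2 change -2.94 ± 0.052, adjusted p = 1.45e-09). By the ratio of mean FPKM the fall of CENPI was larger still, 12.1-fold from 9.038 ± 0.359 to 0.7447 ± 0.0632 FPKM, since the added 1 FPKM narrows the change of a gene that ends below 1. The smallest change of the layer was that of CENPT, a histone-fold protein that binds the NDC80 complex, with 30.43, 32.17 and 29.65 FPKM in DMSO and 23.04, 23.8 and 24.57 FPKM in palbociclib. It kept 77.4% of its level (log2 change -0.36 ± 0.044, adjusted p = 0.000295), and its groups did not overlap.

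The 4 groups of the CCAN beside CENP-C fell by unlike amounts. CENP-H/I/K/M fell 4.96-fold to 12.1-fold, CENP-L/N, which contacts the CENP-A nucleosome, 4.12-fold to 4.37-fold, and CENP-O/P/Q/U 3.16-fold (CENPQ) to 8.86-fold. In the histone-fold group CENP-T/W/X, CENPW fell 6.44-fold, from 36.99 ± 1.96 to 5.747 ± 0.468 FPKM. Its direct partner CENPT fell 1.29-fold and CENPX 1.51-fold. CENPX, also a subunit of the MHF complex of DNA repair with CENPS, stood at 91.16, 95.92 and 93.46 FPKM in DMSO and at 58.72, 66.56 and 60.77 FPKM in palbociclib (log2 change -0.59 ± 0.048). CENPC, the scaffold that reaches from CENP-A to the MIS12 complex, went from 7.294 ± 0.116 to 5.147 ± 0.183 FPKM (1.42-fold, log2 change -0.43 ± 0.053). Among the proteins that read CENP-A or bridge to the outer layer, CENPC and CENPT had small changes while CENPN fell 4.37-fold.

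The remaining CCAN members lay between these. CENPK went from 41.8 to 6.275 FPKM, CENPH from 21.87 to 4.406 FPKM and CENPM from 19.21 to 3.219 FPKM. CENPN went from 52.36 to 11.97 FPKM and CENPL from 12.93 to 3.14 FPKM. CENPO differed most among the palbociclib libraries, at 2.582, 2.806 and 4.276 FPKM, against 11.63, 12.39 and 13.29 FPKM in DMSO. Its log2 change of -1.69 had the largest SE of the 36, 0.135, and its groups did not overlap. CENPP had the lowest level of the 36, 1.147, 1.418 and 1.403 FPKM in DMSO and 0.2247, 0.1536 and 0.1715 FPKM in palbociclib. The means of CENPP differed 7.22-fold but the log2 change on the scale of log2(FPKM + 1) was -0.97 ± 0.086, and 8 other annotated genes overlap its span on chromosome 9. It was the only member with a palbociclib mean below the filter of 0.5 FPKM, and so was tested through its DMSO level. The promoter of CENPX is shown because it holds 5 CCAAT boxes, all on the other strand (ATTGG), and neither a CHR nor an E2F word (chr17:82022879-82023128, minus strand, 250 bases up to the start).
CENPX: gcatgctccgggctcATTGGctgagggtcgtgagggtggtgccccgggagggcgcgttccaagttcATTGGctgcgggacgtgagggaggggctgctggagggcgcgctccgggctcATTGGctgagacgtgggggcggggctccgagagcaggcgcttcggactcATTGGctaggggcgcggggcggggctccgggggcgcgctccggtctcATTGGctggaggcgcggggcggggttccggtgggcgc

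The KNL1 complex, which carries the docking sites of the checkpoint kinase BUB1, fell as a pair. ZWINT, the member with the highest level, went from 131, 129.1 and 126.3 to 15.97, 16.56 and 15.65 FPKM (8.02-fold, log2 change -2.93 ± 0.035, adjusted p = 3.9e-10). KNL1 went from 12.26, 13.65 and 13.63 to 0.9424, 0.9034 and 1.198 FPKM (13-fold, log2 change -2.82 ± 0.078, adjusted p = 2.2e-08). The order of the pair depends on the scale, since KNL1 has the larger fold of means and ZWINT the larger log2(FPKM + 1) change. ZWINT is shown with 110 bases up to its start (chr10:56361274-56361383, minus strand), which hold a CHR word at -17 and CCAAT boxes at -102 and -52.
ZWINT: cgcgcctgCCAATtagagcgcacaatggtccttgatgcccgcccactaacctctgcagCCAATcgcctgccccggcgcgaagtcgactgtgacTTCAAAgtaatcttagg

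The MIS12 complex, the bridge from the inner to the outer layer, had the smallest changes of any complex, with a median log2 change of -0.46. NSL1 stood at 26.01, 23.19 and 23.47 FPKM in DMSO and at 18.79, 19.82 and 19.06 FPKM in palbociclib, and its log2 change of -0.32 ± 0.051 (adjusted p = 0.00135) was the smallest of the 36. MIS12 went from 14.86 ± 0.444 to 11.31 ± 0.456 FPKM (1.31-fold) and PMF1 from 48.55 ± 3.42 to 32.55 ± 1.58 FPKM (1.49-fold). PMF1 shares its start with the read-through gene PMF1-BGLAP, and how reads were divided between them is not given. DSN1, the subunit that Aurora B phosphorylates, was the exception, with 41.59, 40.88 and 41.54 FPKM in DMSO and 12.85, 12.63 and 12.9 FPKM in palbociclib (3.23-fold, log2 change -1.62 ± 0.035, adjusted p = 4.29e-09). In DMSO the level of MIS12 was 0.36 ± 0.012 of that of DSN1 (SD, n = 3), and in palbociclib 0.884 ± 0.029.

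The NDC80 complex, the rod that holds the microtubule end, fell as a whole, with a median log2 change of -3.27 and 4 of 4 subunits between 3.4% and 8.13% of DMSO. SPC25 had the largest change of the 36. Its levels were 24.84, 23.99 and 24.27 FPKM in DMSO and 0.9466, 1.029 and 0.5129 FPKM in palbociclib, 29.4-fold lower (log2 change -3.81 ± 0.106, adjusted p = 2.2e-08). Of all genes tested, 6 had a lower log2 change than SPC25. SPC24, its partner at the inner end of the rod, had the smallest change of the complex on the log2(FPKM + 1) scale, from 11.48, 10.42 and 9.592 to 0.887, 0.8371 and 0.681 FPKM (13.1-fold, log2 change -2.67 ± 0.082, adjusted p = 4.35e-08). NDC80 went from 25.96 ± 0.151 to 1.849 ± 0.196 FPKM (14-fold) and NUF2 from 43.27 ± 1.08 to 3.519 ± 0.222 FPKM (12.3-fold). By the fold of means NUF2, not SPC24, fell least. Within the rod, NUF2 was at 1.67 ± 0.047 times NDC80 in DMSO and 1.91 ± 0.079 times in palbociclib. SPC24 was at 0.431 ± 0.034 of SPC25 in DMSO and 1.03 ± 0.27 in palbociclib. The promoters of SPC25 and NDC80 are shown because both hold a CHR word over the start base, with its leftmost base at -3; that of SPC25 also holds CCAAT boxes at -88 and -56 and an E2F word at -20, as GCGGGAA. The SPC25 sequence is chr2:168890421-168890530 on the minus strand and the NDC80 sequence chr18:2571457-2571566 on the plus strand, each with 100 bases before and 10 from the start.
SPC25: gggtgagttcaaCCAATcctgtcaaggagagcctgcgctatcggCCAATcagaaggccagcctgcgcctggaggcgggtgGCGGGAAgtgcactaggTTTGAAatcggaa
NDC80: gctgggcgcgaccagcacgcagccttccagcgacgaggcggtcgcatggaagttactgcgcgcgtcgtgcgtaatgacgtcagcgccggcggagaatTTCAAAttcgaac

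The SKA complex, which couples the kinetochore to shortening microtubules, did not fall as a unit. SKA1 went from 11.59, 10.9 and 11.28 to 0.7773, 0.482 and 0.6672 FPKM (17.5-fold, log2 change -2.90 ± 0.08, adjusted p = 2.17e-08). SKA3 went from 11.6 ± 0.429 to 0.8244 ± 0.109 FPKM (14.1-fold). SKA2, by contrast, stood at 112.9, 113.9 and 121.4 FPKM in DMSO and at 75.64, 73.53 and 72.18 FPKM in palbociclib (1.57-fold, log2 change -0.65 ± 0.038, adjusted p = 3e-06). Per length, SKA2 RNA was 10.3 ± 0.52 times that of SKA1 in DMSO and 119 ± 29 times in palbociclib, with no overlap between libraries. SKA2 was the most abundant of the 36 in palbociclib and the second in DMSO. SKA2 hosts the genes of the microRNAs MIR301A and MIR454 and overlaps a further lncRNA gene. The promoter of SKA3 has a CHR word over the start base, its leftmost base at -3 (chr13:21176543-21176652, minus strand, 100 bases before and 10 from the start). That of SKA2 has 5 CCAAT boxes and neither a CHR nor an E2F word (chr17:59155187-59155416, minus strand, 230 bases up to the start), and the pair is shown for this difference.
SKA3: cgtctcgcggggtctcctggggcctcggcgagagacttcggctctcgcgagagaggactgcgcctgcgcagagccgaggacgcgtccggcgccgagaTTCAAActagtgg
SKA2: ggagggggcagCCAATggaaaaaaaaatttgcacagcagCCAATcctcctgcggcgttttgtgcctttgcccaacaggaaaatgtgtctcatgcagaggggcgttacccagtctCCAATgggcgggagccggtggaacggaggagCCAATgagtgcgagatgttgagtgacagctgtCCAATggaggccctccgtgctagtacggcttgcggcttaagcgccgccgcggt

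The corona and motor proteins, which catch microtubules from the side and carry the checkpoint, fell in 5 of 5 cases. CENPF, a large coiled-coil protein of late interphase and mitosis, had the largest log2(FPKM + 1) change of the group, with 64.92, 61.82 and 60.39 FPKM in DMSO and 9.131, 8.95 and 9.096 FPKM in palbociclib (6.89-fold, log2 change -2.66 ± 0.04, adjusted p = 6e-10). CENPE, the kinesin that carries chromosomes to the spindle equator, fell 8.58-fold from 12.71 ± 1.59 to 1.483 ± 0.159 FPKM, and so fell more than CENPF by the fold of means. SPDL1, which brings dynein to the kinetochore, fell 3.81-fold from 20.64 ± 0.667 to 5.421 ± 0.231 FPKM. KNTC1 and ZW10 are both subunits of the RZZ complex, the base of the corona. KNTC1 went from 45.75 ± 0.332 to 10.89 ± 0.627 FPKM (4.2-fold). ZW10, which also acts in membrane traffic between the Golgi and the endoplasmic reticulum, went from 31.98, 29.22 and 32.96 to 24.61, 24.08 and 23.75 FPKM (1.3-fold, log2 change -0.36 ± 0.049, adjusted p = 0.000478). ZW10 RNA was 0.686 ± 0.045 of KNTC1 RNA in DMSO and 2.22 ± 0.17 times it in palbociclib, so the order of the 2 subunits turned.

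**Figure D2:**
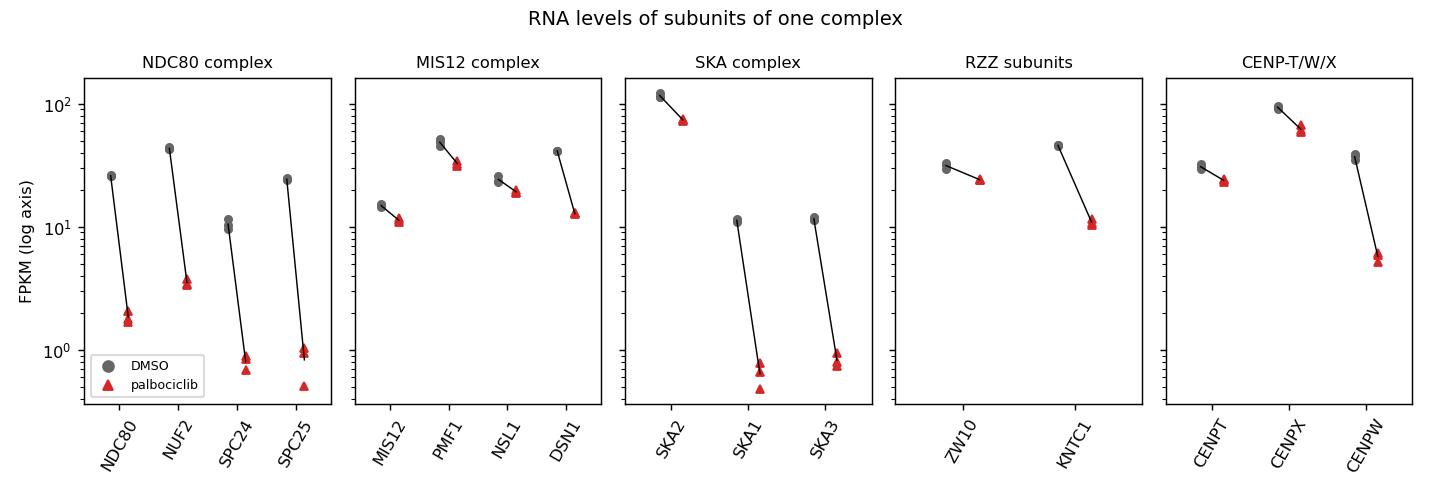
RNA level (FPKM, log axis) of the subunits of 5 groups, with DMSO libraries as grey circles, palbociclib libraries as red triangles and a line between the means. The 4 NDC80 subunits all fall, by 12.3-fold to 29.4-fold, while SKA2, ZW10, CENPT and CENPX stay within 1.57-fold of DMSO as SKA1, KNTC1 and CENPW fall by 4.2-fold to 17.5-fold.

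In the MIS12, SKA, RZZ and CENP-T/W/X groups, at least 1 subunit fell by less than 2-fold while a partner fell by more. CENPT stood at 0.833 ± 0.06 of CENPW in DMSO and at 4.16 ± 0.36 times CENPW in palbociclib, and CENPC at 0.428 ± 0.028 of CENPA in DMSO and 4.17 ± 0.58 times CENPA in palbociclib. These ratios of FPKM were picked after the values were seen, and no test was made on them. SKA3 and SKA1, which both fell by over 10-fold, had overlapping ratios. SKA3 was at 1.03 ± 0.026 times SKA1 in DMSO and 1.36 ± 0.52 times in palbociclib. The palbociclib libraries gave 1.02, 1.96 and 1.1, with both genes below 1 FPKM. In other pairs that fell together the ratio rose without overlap between libraries. ZWINT was at 9.8 ± 0.77 times KNL1 in DMSO and 16.1 ± 2.7 times in palbociclib. The ratios of NUF2 to NDC80 and of SPC24 to SPC25, given above, rose likewise.

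The authors' deposited table gave the same direction in all members, with larger falls for genes that end low. Its log2 fold change was -4.88 (SE 0.267) for SPC25, -4.20 for HJURP and -4.15 for SKA1. At the other end it was -0.33 (SE 0.061) for NSL1 and -0.37 for CENPT in the authors' deposited table. Medians from the authors' deposited table were -2.22 for the CCAN and -2.89 for the outer layer, so the order of the layers was the same on that scale.

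Other genes of the kinetochore and its checkpoint, 30 in number, fell in 26 cases and rose in 0, with a median log2 change of -2.06; 22.9% of all genes were called lower. The largest changes were those of AURKB, the kinase of the chromosomal passenger complex (-3.86, 43.07 ± 1.94 to 2.034 ± 0.156 FPKM), its partner BIRC5 (-3.41, 61.69 to 4.885 FPKM) and PLK1 (-3.40, 73.62 to 6.053 FPKM). The smallest were those of NDEL1 (0.02, 14.03 to 14.2 FPKM), DYNLT3 (0.05, 11.28 to 11.69 FPKM) and CLASP2 (-0.06, 13.29 to 12.75 FPKM), which serve dynein or microtubules in interphase too. These 3 and CLASP1 (-0.07) did not pass the test. The split inside complexes was seen here as well, but ZWILCH, NDE1, CENPS and CKAP5 lay in the gap found among the members. BUB3 went from 94.2 to 61.02 FPKM while BUB1 went from 23.85 to 2.015 FPKM and BUB1B from 34.86 to 3.702 FPKM. CENPS, the MHF partner of CENPX, fell 1.94-fold from 26.37 ± 0.667 to 13.59 ± 1.27 FPKM. ITGB3BP, which encodes CENP-R, fell 1.29-fold from 21.76 to 16.81 FPKM, and ZWILCH, the subunit of RZZ beside ZW10 and KNTC1, fell 2.47-fold from 21.83 to 8.827 FPKM. BUB3, BUB1, BUB1B, CENPS, ITGB3BP, ZWILCH, NDE1 and CKAP5 were named here after their values were seen.

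Among the 30 member promoters, 15 held a CHR word, 11 an E2F word (36.7%) and 19 a CCAAT box (63.3%). The 30 include the sequence inside CENPI, a CCAN member that fell by 2-fold or more, which held none of these words. Over all 27305 promoters of the same length the shares were 24.4%, 9.32% and 35.7%. A CHR and an E2F word together were in 8 member promoters (26.7%) and in 1.24% of all promoters. By layer, the outer kinetochore had a CHR word in 10 of 16 and an E2F word in 7 of 16, the CCAN in 3 of 11 and 1 of 11, and CENP-A with its loading factors in 2 of 3 and 3 of 3. In the sequences printed above, SPC25, NDC80, SKA3, CENPA and ZWINT each have a CHR word whose leftmost base lies within 18 bases of the start; CENPA has a further one at -57. A CHR word with its leftmost base within 40 bases of the start on either side was in 11 of 30 members, namely CENPA, CENPF, CENPN, CENPO, NDC80, NUF2, SKA1, SKA3, SPC25, SPDL1 and ZWINT, and in 6.84% of all promoters. All 11 were among the 22 promoters of members that fell by 2-fold or more, and 0 were among the 8 that fell by less. The width of 40 bases was chosen after the positions were seen, and CENPF lies on its edge. The 2-fold boundary was likewise set after the RNA values were seen. CHR words farther out were in 2 of the 8, CENPC at -90 and ZW10 at -224. At any position, a CHR word was in 13 of the 22. An E2F word was in 3 of the 8 (37.5%), MIS12, PMF1 and ZW10, and in 8 of the 22 (36.4%). Neither a CHR nor an E2F word was found in 8 of the 22 and in 4 of the 8. CCAAT boxes were in 6 of the 8 and in 13 of the 22.

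Accessibility at the starts of these genes was lower by small amounts. Of the 36 members, 22 had an ATAC peak within 1 kb of an annotated start, 1 each, and 21 of these peaks lay over the start base. CENPI, which had none, was searched only around its listed start inside the gene. By edgeR's quasi-likelihood test 14 of 22 were lower at an adjusted p under 0.05 and 0 were higher, against 11.4% lower and 1.78% higher among the 7248 peaks within 1 kb of any start. All 22 log2 changes were negative, with a median of -0.20, against -0.05 for peaks near starts and 0.00 for all 38121 peaks. Negative changes were also found in 4848 of the 7248 peaks near starts and in 18693 of all peaks. In 16 of 22 the groups did not overlap in the lower direction, against 23.6% of peaks near starts. The falls in accessibility were far smaller than those in RNA, and none reached 1 on the log2 scale. A member peak held 165 to 7681 counts in a library.

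The largest fall was at CENPE (chr4:103197924-103198837), with 25.55, 26.06 and 22.2 CPM (counts scaled to library size) in DMSO and 16.18, 17.21 and 14.17 CPM in palbociclib. Its log2 change was -0.63 ± 0.099 (SE; adjusted p = 3.16e-06). SPC25 followed (chr2:168890037-168890793), with 19.5, 17.67 and 17.19 against 11.28, 11.22 and 13.18 CPM (-0.61 ± 0.113, adjusted p = 8.48e-05). This peak contains the SPC25 sequence printed above. HJURP (chr2:233854128-233854946) had 42.62, 39.61 and 44.96 against 26.96, 29.99 and 30.55 CPM (-0.54 ± 0.078, adjusted p = 4.59e-07). At these 3 starts the groups did not overlap. CENPQ (chr6:49462759-49463759, shared with the start of MMUT) changed by -0.37 ± 0.065, from 59.4 ± 1.41 to 45.94 ± 2.23 CPM. CENPF (chr1:214602852-214603482) changed by -0.36 ± 0.053, from 109.1 ± 4.9 to 84.65 ± 1.17 CPM.

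The other 9 called peaks fell by 0.17 to 0.29 on the log2 scale. They were at CENPW (chr6:126339785-126340594, -0.29, adjusted p = 0.0324), SPC24 (chr19:11155473-11156265, -0.25, adjusted p = 0.00142), MIS18A (chr21:32278649-32279443, -0.24, adjusted p = 0.0114) and CENPO (chr2:24792690-24793723, -0.24, adjusted p = 0.00218). They were also at KNTC1 (chr12:122526601-122527618, -0.22, adjusted p = 0.000352), CENPT (chr16:67846420-67847416, -0.21, adjusted p = 0.000691) and NUF2 (chr1:163321387-163322336, -0.18, adjusted p = 0.0118). The last of them were at KNL1 (chr15:40593796-40594755, -0.17, adjusted p = 0.0383) and CENPA (chr2:26785494-26786502, -0.17, adjusted p = 0.0315). KNL1 was called although its groups overlap, with 104.9, 94.91 and 106.2 CPM in DMSO and 95.54, 94.06 and 81.83 CPM in palbociclib. The peak of CENPT lies 277 bases from its start and within 1 kb of the start of NUTF2. Without DMSO replicate 3, 9 of the 22 peaks were called, and those of CENPA, CENPO, CENPW, KNL1 and MIS18A were not. The calls at CENPA and CENPW each held in 5 of 12 alternatives and that at KNL1 in 6 of 12. With single libraries left out, CENPA lost its call for every library but palbociclib replicate 2 and CENPW for every library but palbociclib replicate 3. KNL1 lost it without DMSO replicate 1 or 3 or palbociclib replicate 3, and MIS18A also without palbociclib replicate 1.

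The 8 peaks not called were those of CENPC (chr4:67545243-67545788, -0.03 ± 0.066), PMF1 (chr1:156212679-156213610, -0.08 ± 0.052), ZW10 (chr11:113773212-113774179, -0.08 ± 0.056) and SKA2 (chr17:59154779-59155778, -0.09 ± 0.039), and of ZWINT (chr10:56361038-56361947, -0.09 ± 0.053), CENPK (chr5:65562808-65563652, -0.10 ± 0.061), SKA1 (chr18:50374595-50375417, -0.10 ± 0.062) and SPDL1 (chr5:169583351-169584184, -0.10 ± 0.061). SKA2 had the most accessible of the 22 peaks, 427.7 ± 5.67 CPM in DMSO and 401.9 ± 7.4 CPM in palbociclib, and shares it with the start of PRR11. Of the 5 members with a peak whose RNA fell by less than 2-fold, 1 peak was called lower, that of CENPT, and of the 17 whose RNA fell by 2-fold or more, 13 were. ZWINT and SKA1 lost over 8-fold of their RNA with no called change at the start, at 96.32 ± 2.11 against 90.55 ± 3.22 CPM for ZWINT. Across the 22 members the RNA and peak changes had a Pearson r of 0.47 and a Spearman rho of 0.38, given as a description over genes that share the same libraries. The start of another gene lay within 1 kb of 13 of the 22 peaks, of which 7 were called lower, as were 7 of the 9 without one.

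**Figure D3:**
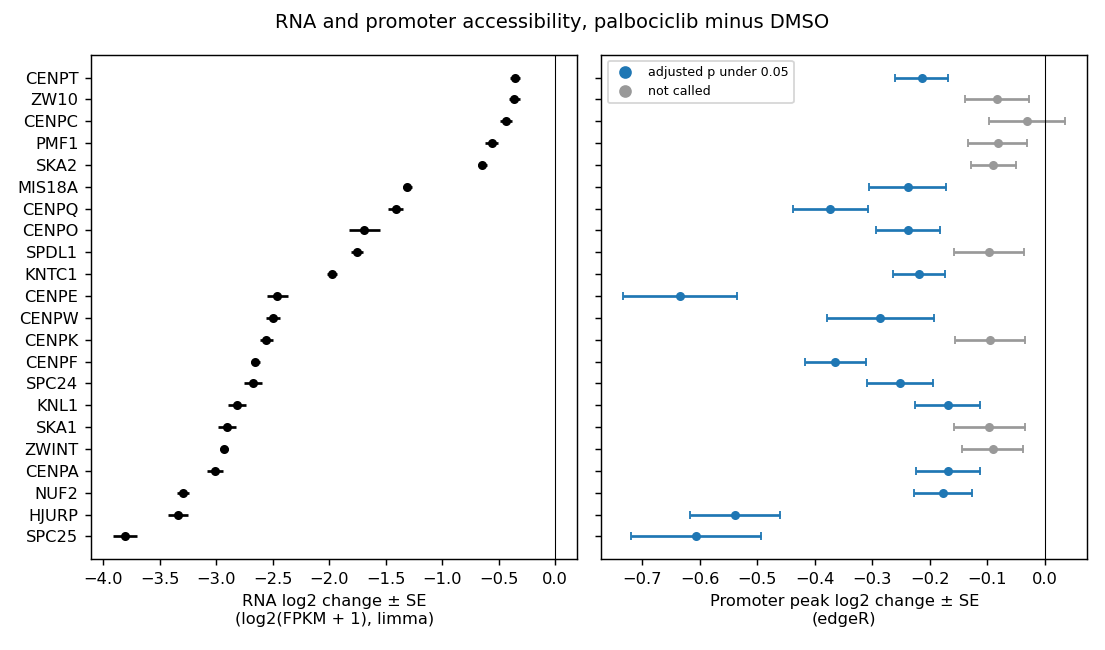
Log2 change (palbociclib minus DMSO) with SE of RNA by limma (left) and of the promoter peak by edgeR (right, blue where the adjusted p is under 0.05) for the 22 members with a peak, in order of the RNA change. All points lie below 0, the peak axis spans less than 1 log2 unit, and CENPE, SPC25 and HJURP lie farthest to the left in the right panel.

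Splicing of the members was read from counts of reads for the inclusion and the skipping form of each event. The tables held 415 member events of 5 types, of which 127 in 27 genes passed the filters, which asked for 20 or more reads on average in a library and for 5% or more of them in the rarer form. By the edgeR test 0 of the 127 were called, and 15 had an unadjusted p under 0.05. Of all 37445 events tested, 0.35% were called and 8.53% had an unadjusted p under 0.05. The reads behind these events fell with the RNA, which limits what can be seen in palbociclib.

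The 5 events with the lowest p had higher inclusion in palbociclib, in groups that did not overlap. Of all 127 tested member events, 20.5% had groups that did not overlap. That share was not computed over all events tested, so the lack of overlap only describes these events. Of the 15 events with an unadjusted p under 0.05, inclusion was higher in 11 and lower in 4, and of all 127 it was higher in 66 and lower in 61. In NUF2, the 141-base exon at chr1:163345678-163345818, the inclusion form of a pair of mutually exclusive exons, was at 0.4082, 0.4536 and 0.4195 in DMSO and at 0.5055, 0.5157 and 0.5379 in palbociclib. Its adjusted p was 0.152, and the mean reads per library were 1910.7 in DMSO and 212.7 in palbociclib. In CENPE, a 291-base exon (chr4:103139789-103140079) was included at 0.0355, 0.067 and 0.056 in DMSO and at 0.1475, 0.1192 and 0.2157 in palbociclib. The adjusted p was 0.177, on 194.3 and 28.3 reads per library. Neither change passed the threshold, so no change of form was called for either gene. In KNL1, the 117-base exon at chr15:40645656-40645772 was also the inclusion form of a pair of mutually exclusive exons. This event rested on 28.7 reads per library in palbociclib, with mean levels of 0.4218 ± 0.0333 and 0.5927 ± 0.0306 (adjusted p = 0.445). In CENPN, the longer form of the exon at chr16:81014136-81014391, by a 5′ splice site 210 bases downstream, was at 0.0256 ± 0.0028 and 0.0459 ± 0.0205 (adjusted p = 0.238). In ZWINT, the 57-base exon at chr10:56359476-56359532, again the inclusion form of such a pair, was at 0.9211 ± 0.0028 and 0.9569 ± 0.0127 (adjusted p = 0.445). The levels of NUF2, KNL1 and ZWINT are thus shares against the partner exon.

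**Figure D4:**
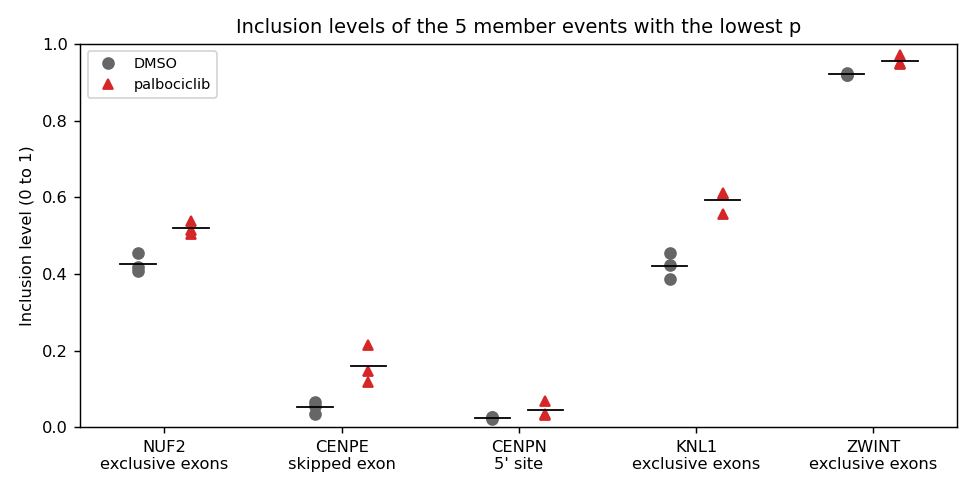
Inclusion level (0 to 1) of the 5 member events with the lowest p, with DMSO libraries as grey circles, palbociclib libraries as red triangles and bars at the means. These 5, chosen by their p, are higher in palbociclib with no overlap, and none passes an adjusted p under 0.05 by edgeR. Of the 127 tested member events, 20.5% have no overlap in either direction. The share over all events tested was not computed.

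The authors' deposited splicing tables, which test the same counts with another model, called 9 of the 415 member events at an FDR under 0.05, 8 with higher and 1 with lower inclusion, against 2.47% of all their events. Of these 9, in 7 genes, 3 were among the events tested above and the other 6 had a rarer form under 5% of the reads. In the authors' deposited tables the CENPE exon above had an FDR of 0.00673, and a further CENPE exon (chr4:103163479-103163553) an FDR of 0.0256. The mean level of the latter went from 0.4478 to 0.2556, and its edgeR adjusted p was 0.378. The other tested event was a 3′ splice site of CENPT (chr16:67828474-67828605), at 0.8221 and 0.9674, with an FDR of 0.00315 in the authors' deposited tables and an edgeR adjusted p of 0.521.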

How the data were processed

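Groups were taken from the labels, with 3 libraries each, and the members and lists were chosen with earlier results of these data known. FPKM were used as deposited by the authors. The submitters' processing notes name fastp 0.23.2, Salmon 1.10.2, STAR 2.7.10b, DESeq2 1.44.0 and GRCh38 for the RNA, and no counting strand is given in the sources used here. The authors' deposited DESeq2 table gives a mean normalised count (a signal value), log2 fold changes and p-values. The deposited splicing tables hold read counts, inclusion levels, p-values and, as a score, the difference of levels, and come from rMATS per the file headers. ATAC peak counts were deposited by the authors, made with featureCounts 2.0.6 over 1 peak set, per the file headers; the command names no option to count pairs.

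Across all genes, limma 3.58.1 (R 4.3.3) with an intensity trend was run on log2(FPKM + 1) for a mean of at least 0.5 FPKM. This scale understates the change of low genes. Peaks (TMM, filterByExpr, which removed 0) and splicing events (1 term per library and inclusion by treatment) were tested with edgeR 4.0.16, quasi-likelihood. P-values were adjusted by Benjamini-Hochberg over all genes, all peaks or all events of a type. Each script was tested on simulated data. Members with the largest and smallest change per layer, all member peaks, the 5 lowest-p events, and the 3 largest and 3 smallest changes among other kinetochore genes were named by rule. Gene coordinates, starts and promoters are RefSeq GRCh38.p14. Alternatives covered pseudocount, filters, scaling, tool (DESeq2 1.42.0), window, replicate number and left-out libraries.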

Additional observations from a re-analysis of the deposited data

How the results depend on the processing

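All 36 members stayed lower in RNA in the alternatives, except that CENPP was filtered out at a mean FPKM of at least 1, where 35 of 35 were lower. The count lower by at least 1 on the log2 scale was 27 to 28 with a library left out. Medians for the CCAN, the outer layer and CENP-A with its loading moved to -2.20, -2.88 and -3.16 with a pseudocount of 0.1, to -1.82, -2.49 and -2.64 after quantile normalization, to -1.80, -2.46 and -2.62 after median centring, and to -2.22, -2.89 and -3.23 in the authors' deposited DESeq2 table. The CCAN median was -2.04 at a mean FPKM of at least 1. With a library left out the medians were -1.96 to -1.86, -2.59 to -2.52 and -2.73 to -2.69. The count of promoter peaks lower was 9 to 13. Of the 22 member peaks, 5 lost their call in at least 1 alternative, and that of CENPC, never called, changed to 0.01 under the loess offset and ranged from -0.09 to 0.01 with a library left out, 0.01 being the value without palbociclib replicate 3. Without the filter on the minor form 387 member events were tested, and the authors' FDR gave 8 higher and 1 lower.

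No clear pairing by replicate number was seen. The correlation of same-numbered deviations was 0.106, -0.005 and 0.088 in RNA and 0.006, 0.042 and -0.028 in ATAC. The same-numbered library was the best match for RNA replicates 1 and 3 and for ATAC replicate 2. With 3 libraries per treatment, such weak correlations cannot exclude a pairing. With the replicate block, 36 members stayed lower and the medians were -1.89, -2.56 and -2.71. FPKM give no depth, and events with about 30 reads per library in palbociclib can show only large differences.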
